A study of Homo sapiens with 18 samples.

Results

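Collagens and matrix glycoproteins are the secreted proteins of which the extracellular matrix is built. The 44 genes described here encode 19 collagen chains, 8 laminin chains and 17 other matrix proteins and matrix enzymes, and each was found as 1 row of the count table by its symbol, out of 57736 rows in all. Their mRNA was measured in cells labelled A1847, a human line of high-grade serous ovarian cancer, by sequencing the 3′ ends of transcripts. 3 kinds of cells were compared, namely control cells that the labels call wild type for CARM1 and XBP1, CARM1 knockout cells and XBP1 knockdown cells. CARM1 is an arginine methyltransferase and transcriptional coactivator, and XBP1 encodes a transcription factor of the unfolded protein response. Each kind of cell was treated with vehicle or with tunicamycin at 5 μg/ml for 8 h, which gave 6 groups of 3 libraries and 18 libraries in all. The knockout was made with a lentiviral CRISPR vector and a single guide RNA and the knockdown with a single lentiviral shRNA. Whether the knockout cells were a clone or a pool, and whether the control cells carried a control vector, is not given in the sources used here.

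Collagens are made of 3 α chains wound into a triple helix. Fibrillar collagens such as type I and type III form the tensile fibres of connective tissue, and type IV collagen forms the network of basement membranes, where it lies beside laminins, nidogens and heparan sulfate proteoglycans. All of these proteins fold and many are N-glycosylated in the ER before secretion, and the collagen chains are also hydroxylated there. Fibronectin, fibrillins and the matricellular proteins are likewise secreted through the ER. Tunicamycin blocks N-glycosylation, so unfolded proteins accumulate in the ER. In ovarian cancer, matrix genes are expressed by fibroblasts of the stroma and, to a degree that differs between lines, by the cancer cells themselves.

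Promoter windows of 4 members are printed first, of a gene pair that shares its promoter, of the genes with the XBP1s core motif and of a gene that was nearly lost from knockout cells. RefSeq windows of 300 bases, from 250 before to 50 after the transcription start (GRCh38.p14), were matched by symbol for 36 of the 44 members, some of which have several starts, so that 43 windows were read. COL1A1, COL1A2, COL3A1, COL5A2, COL8A1, LAMA1, AGRN and LOXL2 have no window in the table. COL4A1 and COL4A2, which encode the 2 chains of the main type IV collagen, are transcribed away from each other, and their windows share 226 bases (chr13:110307108-110307333). In the window of COL4A1 below (chr13:110307108-110307407, minus strand) capitals mark the shared part.
COL4A1: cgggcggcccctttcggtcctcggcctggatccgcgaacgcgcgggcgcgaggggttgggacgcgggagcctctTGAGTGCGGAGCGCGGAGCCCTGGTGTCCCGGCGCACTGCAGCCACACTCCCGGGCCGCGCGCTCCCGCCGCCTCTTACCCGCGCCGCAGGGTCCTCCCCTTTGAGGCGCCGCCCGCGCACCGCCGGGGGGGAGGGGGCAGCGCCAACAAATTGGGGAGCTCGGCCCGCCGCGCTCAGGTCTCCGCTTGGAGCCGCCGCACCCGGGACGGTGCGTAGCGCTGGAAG
The window of FN1, the fibronectin gene (chr2:215436019-215436318, minus strand), and that of LAMA5, a laminin α chain (chr20:62367263-62367562, minus strand), are the member windows that hold ACGTCA, the core of the sequence XBP1s binds, on either strand. In these windows capitals mark the matches, and in FN1 those on both strands overlap in 1 palindrome.
FN1: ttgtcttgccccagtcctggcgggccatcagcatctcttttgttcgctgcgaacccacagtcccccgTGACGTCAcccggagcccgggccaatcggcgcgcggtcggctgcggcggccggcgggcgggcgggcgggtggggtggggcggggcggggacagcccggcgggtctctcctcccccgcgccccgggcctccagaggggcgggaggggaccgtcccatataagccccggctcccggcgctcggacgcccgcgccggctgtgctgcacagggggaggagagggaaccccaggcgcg
LAMA5: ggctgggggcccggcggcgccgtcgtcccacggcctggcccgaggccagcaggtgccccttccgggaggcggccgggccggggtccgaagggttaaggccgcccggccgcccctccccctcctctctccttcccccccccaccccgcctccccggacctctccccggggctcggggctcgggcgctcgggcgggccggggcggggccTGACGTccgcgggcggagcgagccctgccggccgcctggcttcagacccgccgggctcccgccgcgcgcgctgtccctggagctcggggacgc
The window of POSTN, the periostin gene (chr13:37598719-37599018, minus strand), has few CG dinucleotides, which the capitals mark.
POSTN: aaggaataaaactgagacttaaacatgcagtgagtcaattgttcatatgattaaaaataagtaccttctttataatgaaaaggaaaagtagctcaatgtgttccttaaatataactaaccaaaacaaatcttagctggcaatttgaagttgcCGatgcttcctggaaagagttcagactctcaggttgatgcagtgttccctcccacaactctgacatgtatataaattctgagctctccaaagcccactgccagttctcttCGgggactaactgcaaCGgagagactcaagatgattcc

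ACGTCA was in 7.98% of all 35116 promoter windows and in 2 of the 43 member windows. CCACGT, the other part of the XBP1s site, was in 9.72% of all windows and in windows of COL5A1, FBN2, LOX and THBS2. The full site TGACGTGG, which overlaps both of these motifs, was in 0.729% of all windows, the ER stress response element (CCAAT, a gap of 9 bases, CCACG) in 0.0769% and the ATF4 site TGATGNAAT in 0.991%, and no member window held any of the 3. All motifs were searched on both strands, and a match or its lack describes only the letters of these windows. The member windows had a median of 21 CG dinucleotides and 66% G and C, against 14 and 58.7% over all windows. The COL4A1 window holds 45 CG dinucleotides and that of FN1 38, against 3 in POSTN, 6 in HAPLN1 and 12 in COL11A1. These windows are examples and do not part the genes by level. The 10 windows of members nearly absent outside knockout cells held 3 to 45, and those of LAMB3, one of these members, held 10, 11 and 3. Of the members nearly absent from knockout cells, COL1A2, COL3A1 and COL5A2 have no window. What CG content has to do with these levels was not tested.

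The library totals ran from 9367462 counts in CARM1 knockout replicate 3 with vehicle to 13917212 in replicate 1 of the same group. The log2 difference of CARM1 in knockout cells was -1.17 ± 0.05 (SE) with vehicle and -0.92 ± 0.06 with tunicamycin, with 625 to 946 counts left. That of XBP1 in knockdown cells was -0.86 ± 0.09 and -1.06 ± 0.05. The knockout libraries stood apart from the other 12. Pearson's r of log2 CPM (counts per 1000000 counts of the library) across genes was 0.732 to 0.773 between a knockout library and any other, against 0.961 to 0.986 between control and knockdown libraries and 0.963 to 0.989 among the control libraries. PAX8, a marker of Müllerian and ovarian carcinoma cells, had 465 to 840 counts in the knockout libraries and 0 to 2 in each of the other 12, and KRT7 had 3576 to 5166 against 0 to 13. KRT19, another keratin, went the other way, with 0 counts in each knockout library and 5 to 44 in the control libraries. PDGFRA, a fibroblast marker, had 2021 to 3140 counts in control and knockdown libraries and 0 to 15 in the knockout libraries, whereas the mesenchymal markers VIM, CDH2 and ZEB2 were higher in knockout cells with vehicle, by 1.41, 3.80 and 4.83 on the log2 scale. MUC16 was at 0 in all 18. What these markers have to do with the matrix genes was not tested, and whether the knockout libraries come from the same line as the other 12, as labelled, was not tested either. Loss of CARM1 therefore cannot be told apart from any other difference between the knockout cells and the others, a different line included. In bulk RNA, fewer cells of a type and less RNA per cell cannot be told apart either.

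A member was called detectable in a genotype when at least 1 of its 6 libraries had more than 3 counts. Of the 44 members, 36 were detectable in all 3 genotypes, and 6 were detectable in CARM1 knockout cells only, namely COL4A1, COL16A1, LAMA3, THBS2, TNC and BGN. Over all genes, 8.10% of the 22261 that were detectable anywhere were detectable in the knockout only. LAMB3 was detectable in control and knockout cells only, though its highest control count was 5. COL5A1 had at most 3 counts in each of the 18 libraries. No member was detectable in control and knockdown cells and not in the knockout, against 6.43% of the same 22261 genes. With a limit of 10 counts in place of 3, COL3A1, COL4A6 and HAPLN1 were detectable in control and knockdown cells only. The share of all genes at that limit was not counted.

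COL4A1 had 654, 608 and 448 counts in knockout cells with vehicle and 206, 260 and 271 with tunicamycin. The other 12 libraries held 0 to 2 counts each. BGN, the gene of biglycan, a small proteoglycan that binds collagen fibrils, had 314, 295 and 215 counts in knockout cells with vehicle and 368, 364 and 348 with tunicamycin, against 0 to 2 elsewhere. For both genes the groups were far from overlapping. The pooled ratio of knockout to control with vehicle was 704 for COL4A1 (95% exact binomial interval of counting error 241 to 3420) and 339 for BGN (116 to 1650). TNC, which encodes the matricellular protein tenascin C, was lower, with 40, 39 and 19 counts in knockout cells with vehicle and 68, 46 and 69 with tunicamycin, against 0 to 2 elsewhere. COL16A1, LAMA3 and THBS2 were near the limit of detection. THBS2, the thrombospondin 2 gene, had 3 to 5 counts in each knockout library and 0 in each of the other 12. LAMA3, the α3 chain of laminin 332, had 1 to 5 against 0 to 3, and COL16A1 had 4 to 16 against 0 to 3. Their ratios to control with vehicle were at least 4.94-fold for THBS2 and at least 2.88-fold for LAMA3, with 3 counts over the control group as the limit that 0 counts allow. LAMB3, the β3 chain of laminin 332, had 601, 529 and 336 counts in knockout cells with vehicle and 902, 961 and 1066 with tunicamycin, against 0 to 5 in the other libraries.

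**Figure D1:**
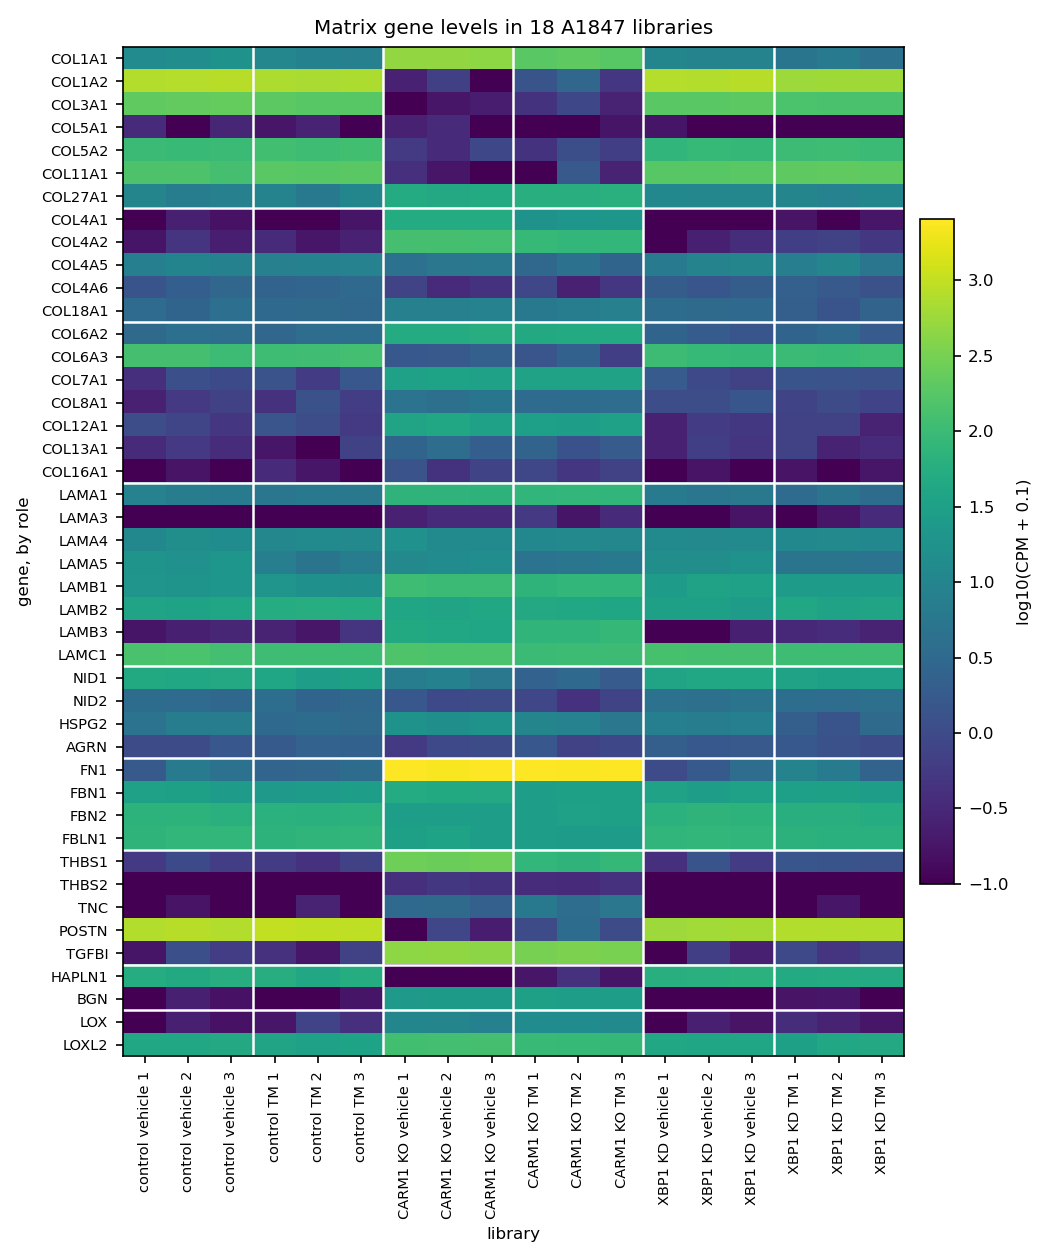
Level of the 44 members in each of the 18 libraries, as log10 of CPM plus 0.1, with genes in rows by role and libraries in columns by group. The 6 columns of CARM1 knockout libraries differ from the other 12 in both directions, with FN1, THBS1 and TGFBI bright and COL1A2, COL3A1 and POSTN dark.

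The first comparison asked how matrix genes differ between CARM1 knockout and control cells. Of the 40 members with enough counts to test, 22 were higher in knockout cells with vehicle and 14 were lower at a false discovery rate of 5% (edgeR's quasi-likelihood test, adjusted over all 17317 genes tested). Of all genes tested, 37.5% were higher and 36.9% lower. The differences were large, since 21 members were higher and 12 lower by at least 2-fold, against 21.9% and 18.3% of all genes. Of the 40 tested, 24 also passed the filter on low counts within control libraries alone and within knockout libraries alone, whereas 10 passed through knockout libraries only and 6 through control libraries only. Members of these last 2 kinds had to differ to be tested at all. The SEs printed below come from the test statistic. For members with few counts in a group they can be smaller than counting error, so they overstate precision there. Among the 24, 11 were higher and 6 lower by at least 2-fold with vehicle, which is 45.8% and 25%, beside 15.6% and 14.8% of the 13630 genes that passed in the same way. The median log2 difference over these 24 members was 0.36, against -0.06 over the 13630 genes. The members were chosen with earlier results of these data known. Their shares and medians, here and with tunicamycin, therefore describe the members and cannot show an excess over all genes.

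Among fibrillar collagens, the 2 chain genes of type I collagen went in opposite directions. COL1A1 (chr17:48261462-48278993, GRCh37), which encodes the α1 chain, had 169, 196 and 259 counts in control cells with vehicle and 6247, 5890 and 3996 in knockout cells. That is 30.9-fold higher, or 4.95 ± 0.08 on the log2 scale (adjusted p = 4.2e-17). COL1A2 (chr7:94024207-94060539, GRCh37), the gene of the α2 chain, had 10211, 11018 and 12954 counts in control cells and 2, 7 and 0 in knockout cells. With tunicamycin COL1A2 had 8682, 8503 and 9594 counts in control cells and 15, 34 and 5 in knockout cells, a log2 difference of -8.92 ± 0.15. No control library overlapped a knockout library for either gene.

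COL3A1 and COL5A2, neighbours on chromosome 2 that are transcribed towards each other and encode chains of type III and type V collagen, were both nearly lost from the knockout libraries. COL3A1 (chr2:189839099-189877472, GRCh37) had 2785, 3018 and 3403 counts in control cells with vehicle and 0, 1 and 1 in knockout cells, a pooled ratio of 3730 (95% exact binomial interval 1030 to 30800). COL5A2 (chr2:189896624-190090038, GRCh37) had 1299, 1328 and 1504 counts against 6, 3 and 7, a log2 difference of -7.72 ± 0.15. COL11A1, a chain of the type XI collagen that nucleates cartilage fibrils and is also expressed by activated stroma, had 1897, 2062 and 1888 counts against 4, 1 and 0. COL27A1, a fibrillar collagen of cartilage, went the other way, with 129, 100 and 123 counts in control cells and 649, 547 and 429 in knockout cells, 2.46 ± 0.11 higher. Of the 7 fibrillar collagens, 6 were tested, of which 2 were higher and 4 lower, against 37.5% and 36.9% of all genes. The 4 lower ones, COL1A2, COL3A1, COL5A2 and COL11A1, did not pass the filter within knockout libraries alone, so they had to differ to be tested. The summed level of all 7 was 1275 to 1347 CPM in control libraries and 507 to 541 CPM in knockout libraries with vehicle.

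**Figure D2:**
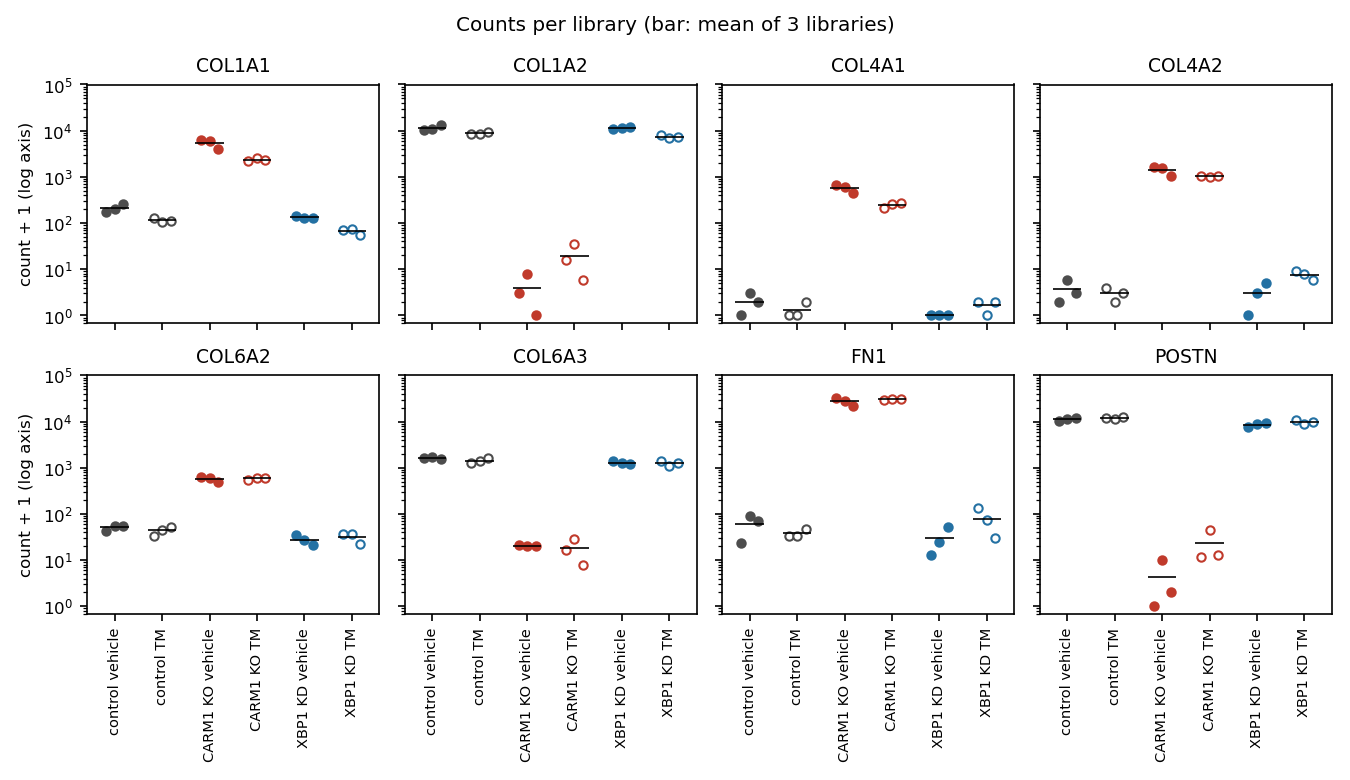
Counts per library plus 1, on a log axis, for 8 members in the 6 groups, with filled points for vehicle, open points for tunicamycin (TM) and a bar at the mean of the 3 libraries. COL1A1, COL4A1, COL4A2, COL6A2 and FN1 are high in CARM1 knockout (KO) libraries, and COL1A2, COL6A3 and POSTN are high in control and XBP1 knockdown (KD) libraries, with no overlap between knockout and the rest.

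The type IV collagen chains split by gene pair. COL4A2 (chr13:110958159-111165556, GRCh37), the head-to-head neighbour of COL4A1 (chr13:110801310-110959504), had 1, 5 and 2 counts in control cells with vehicle and 1634, 1532 and 1066 in knockout cells, 9.23 ± 0.15 higher (log2). The pair overlaps at its 5′ ends, and the counting's use of strand is not given in the sources used here. COL4A5 (chrX:107683068-107940775) and COL4A6 (chrX:107398837-107682727), the other head-to-head pair, whose chains form a type IV collagen of fewer basement membranes, were both lower. COL4A5 had 103, 131 and 125 counts in control cells and 55, 66 and 50 in knockout cells, a log2 difference of -0.80 ± 0.17, and COL4A6 had 17, 27 and 41 against 9, 3 and 3, a log2 difference of -2.21 ± 0.46. COL18A1, whose C-terminal fragment is endostatin, was 1.26 ± 0.19 higher. The summed level of the 5 basement membrane collagens was 12.8 to 15.3 CPM in control and 188 to 193 CPM in knockout libraries with vehicle.

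Of the other collagens, the 2 measured chains of type VI collagen, which forms beaded microfibrils, also parted. COL6A2 had 42, 54 and 55 counts in control cells with vehicle and 647, 604 and 493 in knockout cells, 3.80 ± 0.11 higher. COL6A3 had 1629, 1738 and 1559 against 20, 19 and 19, a log2 difference of -6.14 ± 0.14. COL7A1, the collagen of the anchoring fibrils of skin, COL12A1, a collagen that binds fibril surfaces, COL8A1 and the transmembrane collagen COL13A1 were higher, by 5.42 ± 0.19, 5.67 ± 0.19, 3.42 ± 0.35 and 3.04 ± 0.42 on the log2 scale.

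The laminins differed by chain. LAMA1, the α1 chain typical of embryonic basement membrane, had 115, 98 and 102 counts in control cells with vehicle and 949, 866 and 602 in knockout cells, 3.19 ± 0.10 higher. LAMB1, the β1 chain, had 252, 261 and 309 against 1384, 1190 and 867, 2.32 ± 0.07 higher. For LAMB3, given above, the log2 difference was 8.09 ± 0.21. LAMA5 was lower, at -0.57 ± 0.11. LAMC1, the γ1 chain that most laminins share, had 1790, 1932 and 1814 counts in control and 1983, 1716 and 1277 in knockout cells, of which the last is the shallowest library, and its difference of 0.10 ± 0.06 did not pass the test (adjusted p = 0.15). LAMA4 and LAMB2 also did not pass, at 0.05 ± 0.14 and 0.02 ± 0.07. With tunicamycin LAMB2 was lower in knockout cells by 0.32 ± 0.06, while LAMA4 and LAMC1 again did not pass.

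The linkers and proteoglycans of the basement membrane followed no common direction. NID1 (nidogen 1, which links laminin to type IV collagen) had 618, 603 and 667 counts in control cells with vehicle and 92, 101 and 50 in knockout cells, a log2 difference of -2.70 ± 0.11, and NID2 was lower too, at -1.60 ± 0.30. HSPG2, the gene of perlecan, was 1.40 ± 0.15 higher. AGRN, the gene of agrin, had 12 to 22 counts in control and 6 to 10 in knockout cells, and its difference of -0.68 ± 0.44 did not pass with vehicle (adjusted p = 0.17), whereas with tunicamycin it was lower, at -1.10 ± 0.36 (adjusted p = 0.013), a call lost without knockout replicate 2 (-0.87, adjusted p = 0.062).

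FN1 (chr2:216225163-216300796, GRCh37) had 22, 90 and 68 counts in control cells with vehicle and 32624, 27757 and 21524 in knockout cells, 9.09 ± 0.16 higher (log2, adjusted p = 2.2e-16). With tunicamycin it had 32, 33 and 47 against 29542, 30423 and 30821. Fibronectin is the glycoprotein onto which cells assemble other matrix, and its level was 2325 to 2531 CPM in knockout cells with vehicle and 1.7 to 6.62 CPM in control cells. The summed level of all 44 members was 4650 to 4854 CPM in knockout and 2777 to 2876 CPM in control cells with vehicle. The fibrillins, which form microfibrils, went in opposite directions, with FBN1 0.62 ± 0.08 higher and FBN2 lower at -1.30 ± 0.07, and the fibulin gene FBLN1 was lower at -1.34 ± 0.08.

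Matricellular genes showed the same kind of exchange. POSTN had 10272, 11514 and 11878 counts in control cells with vehicle and 0, 9 and 1 in knockout cells, and 11988, 11529 and 12803 against 11, 44 and 12 with tunicamycin. TGFBI, which encodes an integrin-binding matrix protein induced by TGF-β, had 1, 15 and 8 counts against 5834, 5653 and 3829, 9.55 ± 0.15 higher. THBS1, the thrombospondin 1 gene, had 6, 12 and 8 counts against 3492, 3062 and 2323, 8.65 ± 0.11 higher. HAPLN1, which encodes a link protein of hyaluronan and proteoglycans, had 689, 640 and 813 counts in control cells and 0 in each of the 3 knockout libraries with vehicle, at least 578-fold lower, and 1, 4 and 1 counts with tunicamycin. The lysyl oxidases, which crosslink collagen, were higher in knockout cells. LOX had 0, 2 and 1 counts in control cells with vehicle and 134, 120 and 75 in knockout cells. LOXL2 had 554, 570 and 670 against 1501, 1470 and 1129, 1.46 ± 0.06 higher.

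**Figure D3:**
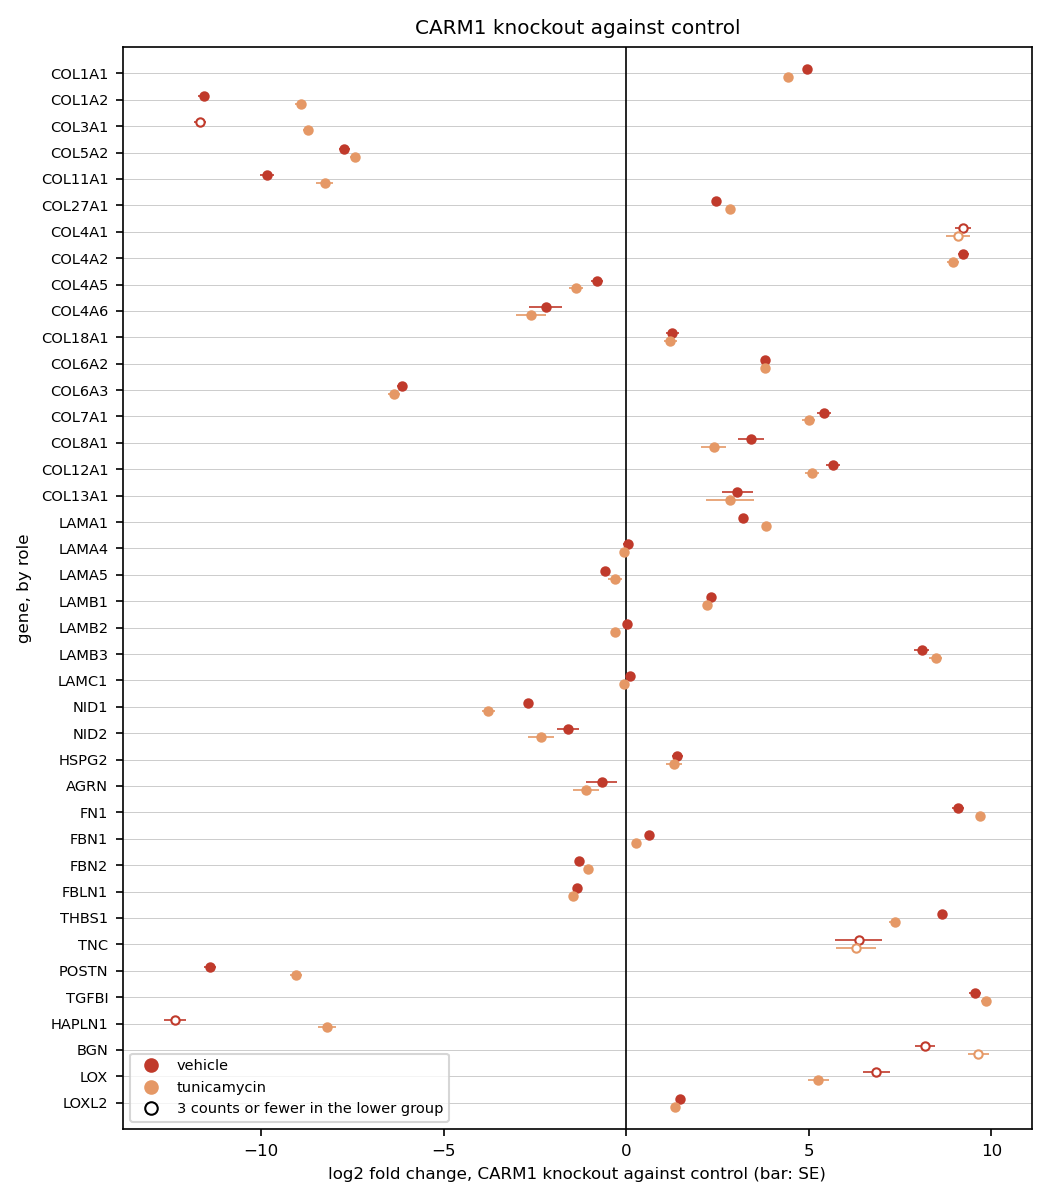
Log2 fold change of CARM1 knockout against control, with its SE, for the 40 tested members by role, with vehicle in red and tunicamycin in orange. Open points have 3 counts or fewer over the lower group, so their size depends on the prior count. Where the lower group has few counts the SE can be smaller than counting error, so such bars can be too short. The points lie on both sides of 0 within most roles, and those of LAMA4 and LAMC1 lie near 0.

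Under tunicamycin 22 members were higher and 15 lower in knockout than in control cells, against 38.4% and 36.8% of all genes. By at least 2-fold these were 21 and 14, against 22.2% and 17.7%. Among the 24 members that passed within each genotype alone, 11 (45.8%) were higher and 8 (33.3%) lower by at least 2-fold, against 16.1% and 14.2% of the 13630 genes, and their median was 0.10 against -0.04. Every member called under both treatments lay on the same side of 0. The control libraries are not shared between the treatments, but the cells are.

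The low counts of a gene in the genotype that nearly lacks it were not spread evenly over libraries. In knockout replicate 2 with tunicamycin, COL1A2, POSTN, COL3A1, COL11A1 and COL5A2 had 34, 44, 10, 20 and 13 counts, each the highest of the 6 knockout libraries and 0.359 to 0.894% of the control level. In control replicate 2 with vehicle, FN1, TGFBI and COL4A2 had 90, 15 and 5 counts, each the highest of the 6 control libraries and 0.243 to 0.293% of the knockout level. The source of these reads was not tested. By mean level over both treatments, 8 members were under 1% of their knockout level in both other genotypes (COL4A1, COL4A2, LAMB3, FN1, THBS1, THBS2, TGFBI and BGN). In knockout cells 6 were under 1% of their highest level (COL1A2, COL3A1, COL5A2, COL11A1, POSTN and HAPLN1). This reading was chosen after the data had been seen. THBS2 had 3 to 5 counts in each knockout library, too few to show a level under 1% elsewhere. With tunicamycin alone, THBS1 in knockdown cells was at 1.45 to 1.76% of the knockout level. The share of all genes under these limits was not counted, so whether 8 and 6 are many for a set of this size cannot be said.

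The next comparison asked how 8 h of tunicamycin changed these genes within each genotype. In control cells 5 of the 40 tested members were higher and 9 lower with tunicamycin, against 22% and 19.9% of all genes. In knockout cells 9 were higher and 15 lower, against 20.6% and 18.8%, and in knockdown cells 5 were higher and 13 lower, against 19.2% and 19%. The median log2 difference over the tested members was -0.10 in control, -0.21 in knockout and -0.11 in knockdown cells. Of the 40, 10 did not pass the filter on low counts within control libraries alone, and 6 did not within knockout libraries alone. Such members have few counts there and can hardly be called, yet they stand in these totals and medians.

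COL1A1 and LAMA5 fell in all 3 genotypes. COL1A1 had 128, 103 and 108 counts in control cells with tunicamycin, and fell by 0.71 ± 0.14 (log2) from the vehicle counts given above. In knockout cells it had 2205, 2623 and 2303 counts with tunicamycin, and the change was -1.27 ± 0.04. LAMA5 had 246, 229 and 304 counts in control cells with vehicle and 91, 59 and 96 with tunicamycin, a change of -1.50 ± 0.15. It had 151, 159 and 124 counts against 55, 65 and 74 in knockout cells and 198, 207 and 261 against 70, 55 and 56 in knockdown cells, with changes of -1.27 ± 0.14 and -1.74 ± 0.14. For LAMA5 no vehicle library overlapped a tunicamycin library of its genotype. NID1, LAMC1 and HSPG2 also fell in each genotype, HSPG2 by 0.91 ± 0.20, 1.02 ± 0.15 and 1.82 ± 0.24 in control, knockout and knockdown cells.

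LAMB2, POSTN, COL11A1 and COL5A2 rose in control cells and in knockdown cells. LAMB2, the β2 laminin chain, had 476, 492 and 569 counts in control cells with vehicle and 629, 659 and 695 with tunicamycin, a rise of 0.53 ± 0.07. In knockdown cells it had 426, 452 and 392 counts against 598, 389 and 447, which overlap, and the rise of 0.30 ± 0.09 was lost without knockdown replicate 3 with vehicle (0.23, adjusted p = 0.074) or replicate 1 with tunicamycin (0.22, adjusted p = 0.098). POSTN rose by 0.27 ± 0.05 in control and 0.35 ± 0.04 in knockdown cells, and COL11A1 by 0.42 ± 0.07 and 0.17 ± 0.05. COL5A2 had 1432, 1340 and 1534 counts in control cells with tunicamycin, a rise of 0.22 ± 0.06, and rose by 0.28 ± 0.06 in knockdown cells. COL1A2 and COL3A1 fell a little instead, by 0.19 ± 0.05 and 0.23 ± 0.05 in control cells. LAMA1 had 62, 71 and 76 counts in control cells with tunicamycin, and its change of -0.43 ± 0.16 (adjusted p = 0.043) was lost without control replicate 1 with vehicle (-0.31, adjusted p = 0.19) and in 4 further fits that left out 1 library each.

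In knockout cells, genes of high level there moved in both directions. THBS1 had 945, 927 and 1075 counts with tunicamycin, and fell by 1.69 ± 0.05. COL4A1 fell by 1.32 ± 0.08 and its neighbour COL4A2, with 1056, 1017 and 1022 counts, by 0.55 ± 0.05. NID1 fell from 92, 101 and 50 counts to 27, 39 and 22, a change of -1.55 ± 0.21. LAMB3 rose by 0.91 ± 0.07, TNC by 0.81 ± 0.23, LOX by 0.52 ± 0.12 and BGN by 0.29 ± 0.08. COL27A1 had 709, 741 and 789 counts with tunicamycin and rose by 0.36 ± 0.06, and LAMA1 had 912, 1047 and 982 counts and rose by 0.19 ± 0.05. FN1 changed by 0.05 ± 0.03, which did not pass the test. COL3A1, POSTN and COL1A2 were higher with tunicamycin by 2.69 ± 1.03, 2.60 ± 0.70 and 2.45 ± 0.71, but on 44 counts or fewer per library. Without knockout replicate 2 with tunicamycin, the library with the highest counts of all 3, the values were 1.90, 1.68 and 1.65 and none passed (adjusted p = 0.27, 0.10 and 0.12). The COL3A1 call was lost in 4 further fits that left out 1 library each, and without knockout replicate 2 with vehicle the values of POSTN and COL1A2 were 5.01 and 3.87. In knockdown cells FN1 had 12, 24 and 52 counts with vehicle and 132, 74 and 29 with tunicamycin, so that the groups overlapped. Its rise of 1.53 ± 0.45 was lost without replicate 1 with tunicamycin (1.07, adjusted p = 0.095) or with vehicle (1.18, adjusted p = 0.065).

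**Figure D4:**
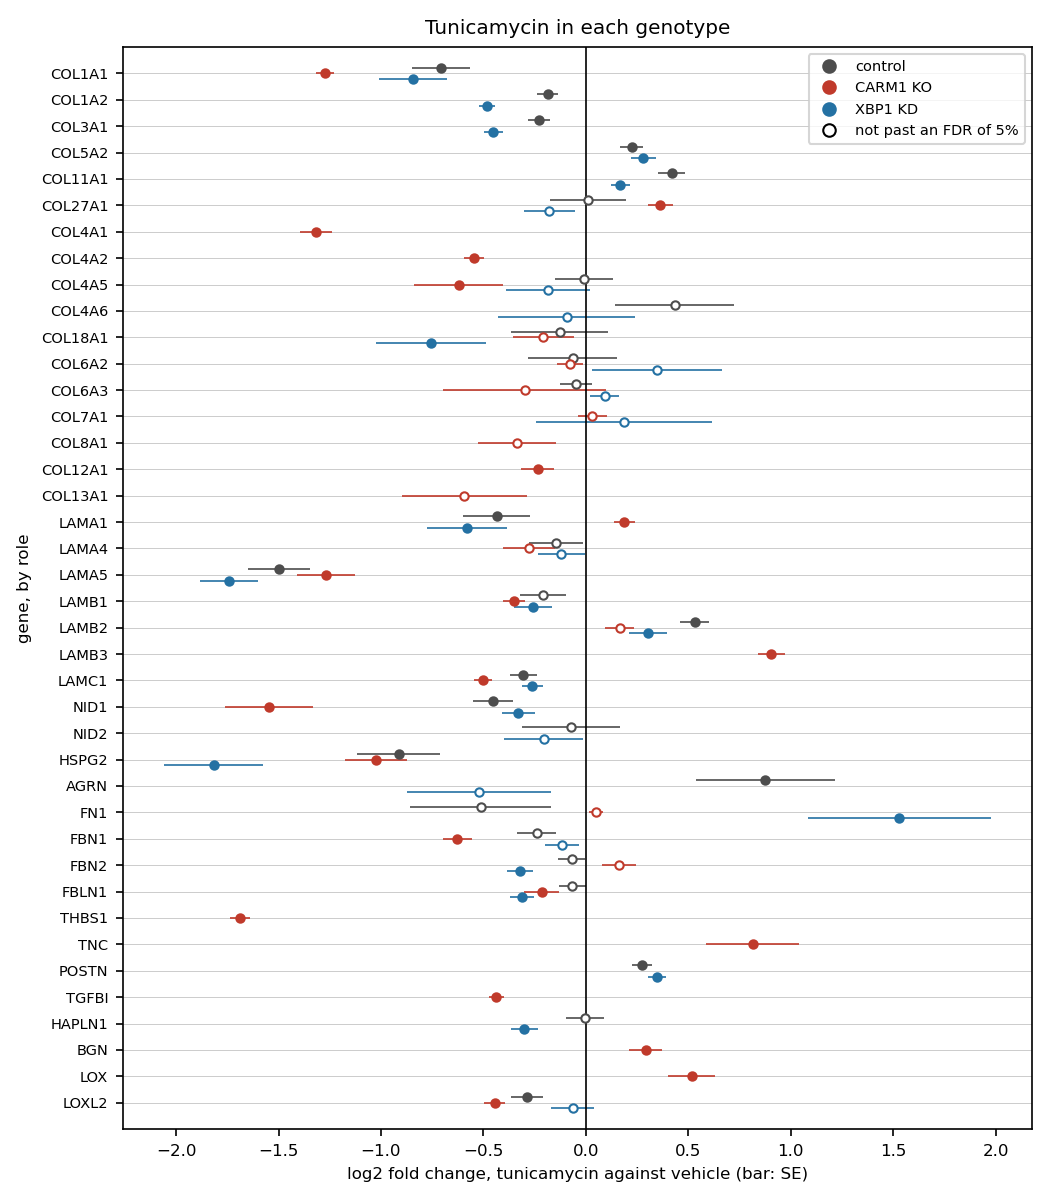
Log2 fold change of tunicamycin against vehicle, with its SE, in each genotype, for members with a mean of at least 1 CPM in both groups (28 in control, 31 in CARM1 knockout and 29 in XBP1 knockdown cells). Open points did not pass a false discovery rate of 5%, and COL1A1 and LAMA5 lie below 0 in all 3 genotypes.

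Whether the response differed between genotypes was tested by an interaction term. In knockout cells 4 members had a higher and 5 a lower response than in control cells. These are 10% and 12.5% of the tested members, about the same as the 10.5% and 12.4% of all genes. COL1A1 fell further in knockout than in control cells, with a difference of -0.58 ± 0.14 (adjusted p = 0.004), though without control replicate 1 with tunicamycin the difference was -0.38 (adjusted p = 0.074). The difference for NID1, which also fell further, was -1.12 ± 0.24 (adjusted p = 0.0018). LAMA1 fell in control and rose in knockout cells, a difference of 0.60 ± 0.14 (adjusted p = 0.0036). LAMB2 had 494, 442 and 362 counts in knockout cells with vehicle and 523, 534 and 507 with tunicamycin, and the difference in response was -0.39 ± 0.09 (adjusted p = 0.0049). FBN1 had 420, 439 and 411 counts in control cells with vehicle and 286, 314 and 365 with tunicamycin, and 669, 570 and 398 against 335, 405 and 392 in knockout cells, and its difference of -0.41 ± 0.12 was lost in 5 of the 12 fits that left out 1 library. THBS1 differed by -1.35 ± 0.43 (adjusted p = 0.026), with 4 to 12 counts in each control library, and lost the call in 4 of these fits. COL3A1, COL1A2 and POSTN also passed, with differences of 2.92 ± 0.77, 2.61 ± 0.64 and 2.31 ± 0.66 that rested on the low knockout counts given above. Without knockout replicate 2 with tunicamycin the values were 2.13, 1.79 and 1.38, and none passed (adjusted p = 0.12, 0.051 and 0.11). The POSTN call was also lost without knockout replicate 1 or 3 with vehicle (1.63 and 2.04), and without replicate 2 the values of COL1A2 and POSTN were 4.05 and 4.76.

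The last comparison asked what differed in XBP1 knockdown cells. XBP1 mRNA was lowered but not lost there, at 49.5% of its control level over both treatments. With a single shRNA and a control vector that is not given, lower XBP1 cannot be told apart from other effects of the construct. XBP1 knockdown cells were compared with the same control libraries as the knockout cells. With vehicle 2 of the 40 tested members were higher and 5 lower in knockdown cells, against 2.07% and 3.03% of all genes. With tunicamycin 3 were higher and 8 lower, against 6.99% and 8.55%. The 40 include 10 members that did not pass the filter within control libraries alone. No called difference reached 1 on the log2 scale except that of THBS1 with tunicamycin, 1.41 ± 0.46 (adjusted p = 0.046), on 4 to 20 counts per library. That call was lost without any single library (1.21 to 1.63, adjusted p = 0.081 to 0.14), with DESeq2 (adjusted p = 0.12) and with the replicate block (adjusted p = 0.081).

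LAMB1, COL1A1, POSTN, COL3A1, COL6A3 and COL11A1 were called under both treatments and lay on the same side each time. LAMB1 had 358, 477 and 477 counts in knockdown cells with vehicle, all above the 252, 261 and 309 of control cells, and 370, 310 and 315 against 237, 192 and 204 with tunicamycin. It was higher by 0.66 ± 0.10 with vehicle (adjusted p = 0.0011) and by 0.64 ± 0.10 with tunicamycin (adjusted p = 0.0006). COL1A1 had 138, 129 and 129 counts in knockdown cells with vehicle and 71, 75 and 54 with tunicamycin, all below each control library of the same treatment. It was lower, at -0.66 ± 0.13 (adjusted p = 0.0081) and -0.77 ± 0.18 (adjusted p = 0.0089). POSTN had 7651, 8666 and 9249 counts with vehicle and 10984, 8993 and 9583 with tunicamycin in knockdown cells, and was lower, at -0.41 ± 0.05 and -0.31 ± 0.04. COL3A1 had 2464, 2690 and 2788 counts with vehicle and 2014, 1582 and 1687 with tunicamycin, and was lower, at -0.23 ± 0.05 and -0.42 ± 0.05. The COL3A1 call with vehicle was lost without control replicate 2 or knockdown replicate 1 or 2 (-0.20 to -0.23, adjusted p = 0.052 to 0.083).

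COL6A3 had 1387, 1261 and 1233 counts in knockdown cells with vehicle and was lower, at -0.36 ± 0.08 (adjusted p = 0.022), a call that was lost without any of 4 libraries (control replicates 1 and 2, knockdown replicates 2 and 3). With tunicamycin COL6A3 was lower, at -0.19 ± 0.06, and 5 of the 6 fits that left out 1 library lost that call. COL5A2 had 1057, 1247 and 1243 counts and was lower, at -0.23 ± 0.06 with vehicle (adjusted p = 0.032), which was lost without any 1 of 5 libraries, at adjusted p = 0.066 to 0.12. COL11A1 had 2378, 2562 and 2708 counts with vehicle and 2908, 2388 and 2515 with tunicamycin in knockdown cells. It was higher by 0.37 ± 0.06 with vehicle, and its difference of 0.15 ± 0.05 with tunicamycin was lost without any single library. LAMB2 had 598, 389 and 447 counts in knockdown cells with tunicamycin, all below the control libraries, and was lower, at -0.49 ± 0.08 (adjusted p = 0.00061). COL1A2 was lower, at -0.28 ± 0.04 with tunicamycin, when knockdown cells had 8155, 6840 and 7247 counts. COL1A2 was also the one member whose response to tunicamycin differed in knockdown cells, by -0.29 ± 0.06 (adjusted p = 0.014), against 1.67% of all genes with a lower response. The call was lost without control replicate 1 with vehicle (-0.26, adjusted p = 0.0502) and without control replicate 3 with tunicamycin (-0.28, adjusted p = 0.054).

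**Figure D5:**
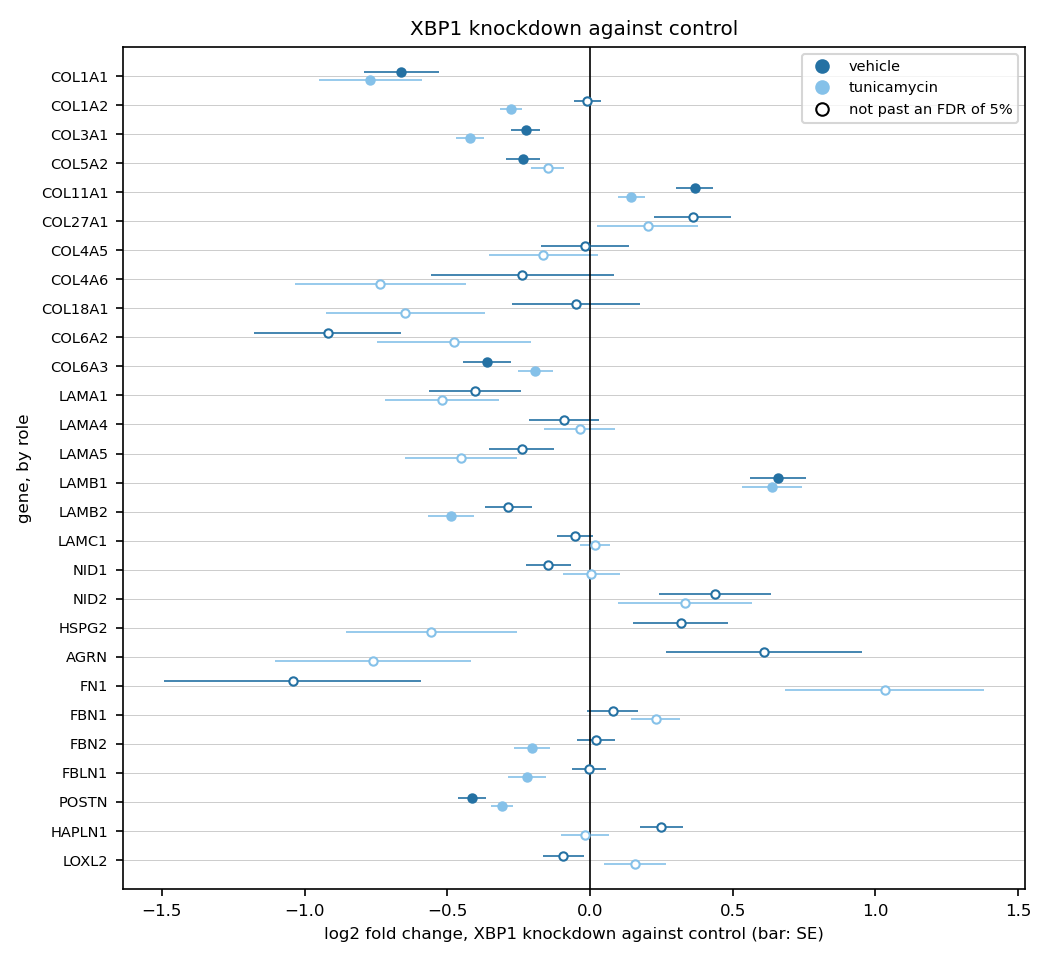
Log2 fold change of XBP1 knockdown against control, with its SE, under each treatment, for the 28 members with a mean of at least 1 CPM in control and knockdown cells. Open points did not pass a false discovery rate of 5%. LAMB1 lies above 0 and COL1A1, POSTN and COL3A1 lie below 0 under both treatments.

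Genes that act on the matrix proteins were described by 3 further lists. Of 26 tested genes of collagen processing, 10 were higher and 13 lower in knockout cells with vehicle, against 37.5% and 36.9% of all genes. The 2 highest and the 2 lowest of these differences were those of P3H2, a prolyl 3-hydroxylase (5.93 on the log2 scale), ADAMTS2, which removes the N-propeptide of procollagens (4.64), COLGALT2, a collagen galactosyltransferase (-3.62), and PCOLCE, an enhancer of C-propeptide removal (-3.28). With tunicamycin in control cells 10 of the 26 rose and 5 fell, against 22% and 19.9% of all genes, and the highest rises were those of FKBP14, an ER prolyl isomerase (1.64), and MIA3, which exports procollagen from the ER (1.53). In knockdown cells with tunicamycin 8 were lower and 2 higher, against 8.55% and 6.99% of all genes, and FKBP14 was lower, at -0.93.

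Of 20 tested matrix receptors, 10 were higher and 8 lower in knockout cells with vehicle, against the same 37.5% and 36.9%. CD44, the hyaluronan receptor, had 0, 8 and 4 counts in control and 4931, 4615 and 3314 in knockout cells. DDR2, a receptor for fibrillar collagen, had 4467, 4683 and 4886 counts in control and 55, 46 and 29 in knockout cells, and it rose to 13234, 12431 and 14526 in control cells with tunicamycin. Of 17 tested proteases and inhibitors, 13 were higher and 3 lower in knockout cells with vehicle, beside those shares. MMP1, an interstitial collagenase, had 0, 6 and 3 counts in control and 920, 904 and 575 in knockout cells, and MMP14, a membrane-bound collagenase, had 2, 2 and 4 against 499, 434 and 339. TIMP3, a metalloprotease inhibitor bound to matrix, had 498, 555 and 546 counts in control cells and 0 in each knockout library with vehicle, at least 431-fold lower. In knockdown cells with vehicle, SERPINH1, a collagen chaperone, was lower, at -0.57, as was TIMP2, another inhibitor, at -1.35.

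The marker lists were counted beside these results. In knockout cells with vehicle 6 of 7 tested epithelial markers were higher and 1 lower, 3 of 4 tested Müllerian markers were higher, and 3 of 11 tested mesenchymal markers were higher and 7 lower, against 37.5% higher and 36.9% lower over all genes. The 3 higher Müllerian markers, PAX8, MSLN and WT1, had 2, 2 and 0 counts over the control libraries with vehicle, so they had to differ to be tested. Unlike the members, neither these lists nor the 3 lists above were split by the filter within each genotype. Epithelial markers summed to 312 to 334 CPM in control and 2623 to 2720 CPM in knockout libraries with vehicle. Mesenchymal markers summed to 1422 to 1551 and 1543 to 1662 CPM, and Müllerian markers to 1.14 to 1.31 and 66.6 to 75.7 CPM. Endothelial and leukocyte markers summed to at most 1.12 CPM in every library, with none of the 7 tested. In knockdown cells with vehicle, 3 of 7 tested epithelial markers were lower, against 3.03% of all genes, and the summed level of the list was 133 to 146 CPM. The part of these markers in the differences between genotypes was not tested.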

How the data were processed

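RNA of A1847 cells was sequenced from the 3′ end (Lexogen 3′ mRNA-seq, 75 nt single reads). The authors aligned reads to hg19 with bowtie2 and estimated with RSEM the expected counts of each Ensembl gene, deposited as unnormalized whole numbers. These values were used as deposited, in 1 table of 57736 genes in which each of the 18 columns was mapped to a sample. Symbols and GRCh37 positions came from the GENCODE annotation (55501 rows matched), promoters from a RefSeq table of GRCh38.p14. Proteins were not analysed here.

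Genes were tested with edgeR 4.0.16 in R 4.3.3 (TMM scaling, quasi-likelihood F test, Benjamini-Hochberg adjustment over all 17317 genes that passed filterByExpr with a minimum count of 10 over the 18 libraries). Only the groups compared entered a fit, and an interaction term compared responses. Log2 CPM values used a prior count of 2, and fold changes used the default prior count of edgeR's fit. The SE followed from each fold change and its F statistic (log2 fold change / √F). Where a group has few counts, this SE can be smaller than counting error. That holds for knockout against control in TGFBI, THBS1, COL4A2, LAMB3 and COL5A2, whose fold changes are less certain than their SEs. Library totals were 9367462 to 13917212 counts, and CPM (counts per 1000000) used each total times its TMM factor. A gene was called detectable above 3 counts, and ratios of genes with 3 counts or fewer in a group carry 95% exact binomial intervals, which cover counting error only. Replicates of a group differed by more than sampling noise (chi-square per degree of freedom 1.84 to 6.89). The labels do not say that they came from separate cultures, so p-values measure the spread between these samples, which may be technical. The labels give no batch.

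The members and gene lists were chosen with earlier results of these data known. Members named with the value of every library were those not detectable in some genotype, partners of 3 neighbouring gene pairs, the called members with the 4 highest and 4 lowest fold changes per comparison among those whose log2 CPM averaged 3 or more, and called interaction terms (4 highest and 4 lowest). The reading at 1% of a level was chosen later, with the values known. Of the other lists, up to 2 called genes in each direction were chosen per comparison, and only some of these are printed. TGFBI, THBS1 in the genotype comparisons, LOX, COL12A1, HSPG2, PAX8, KRT7 and further members given by role were named after their values were seen. Alternatives were DESeq2 size factors, DESeq2 1.42.0, no filter, 1 fit over all 18 libraries, a replicate block, leaving out each library, and detection limits of 0 and 10 counts.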

Additional observations from a re-analysis of the deposited data

Results flagged for a closer look

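The results below had a response to tunicamycin that differed from that of control cells by the test of the difference itself (edgeR's interaction term, 3 libraries per group, adjusted over all genes). In CARM1 knockout cells the difference on the log2 scale was 2.92 for COL3A1, 2.61 for COL1A2 and 2.31 for POSTN, all at 44 counts or fewer in each knockout library. It was 0.60 for LAMA1, which fell in control cells and rose in knockout cells. It was -1.35 for THBS1, -1.12 for NID1, -0.58 for COL1A1, -0.41 for FBN1 and -0.39 for LAMB2. In XBP1 knockdown cells it was -0.29 for COL1A2. The share of members called in knockout cells, 10% higher and 12.5% lower, was about that of all genes, 10.5% and 12.4%. Some fits that left out 1 library lost the calls of COL3A1, COL1A2, POSTN, THBS1, COL1A1 and FBN1 in knockout cells. The COL1A2 call in knockdown cells was lost in such fits too. Groups of 3 libraries were not examined for outlying samples.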

How the results depend on the processing

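Directions did not reverse in any of the alternatives run for the called members. Over the 157 differences of members that were called, the fits that left out 1 library kept the call 898 times and lost it 104 times, for 30 of the 157. The calls lost in other fits came to 18 with DESeq2, 11 with all 18 libraries in 1 fit (among them the rises of TNC, BGN, LOX and LAMA1 with tunicamycin in knockout cells), 7 with the replicate block, 4 without the filter and 0 with DESeq2 size factors. The cause was not tested. Without the filter on low counts, 8 members were lower in knockdown cells with vehicle (5 with it) and 1 had a higher response in knockdown cells (0 with it). DESeq2 called 5 members lower in knockdown cells with tunicamycin (edgeR 8). With all 18 libraries in 1 fit no member had a different response in knockdown cells, 0 against 1 (COL1A2 -0.28, adjusted p = 0.23). With a limit of 0 counts 1 member, THBS2, was detectable in knockout cells only, 8 were with a limit of 10 counts, and 8 were under 1% of the knockout level elsewhere. Same-numbered libraries did not deviate together (r = -0.049 to 0.039), so the numbers do not pair them. With the replicate block, calls were lost for COL5A2 (-0.24, adjusted p = 0.051) with vehicle and THBS1 (1.42, 0.081) with tunicamycin in knockdown against control cells, and for the responses to tunicamycin of LAMA1 (-0.43, 0.053) and AGRN (0.89, 0.063) in control, COL3A1 (2.70, 0.061) and FBLN1 (-0.21, 0.055) in knockout and LAMB1 (-0.25, 0.053) in knockdown cells. The block lost no other call. Without control replicate 3, COL13A1 in knockout against control cells with tunicamycin was 5.12 (2.84 with it).

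Leaving out each library in turn gave these ranges of members called higher and lower. They were 22 to 23 and 14 to 14 for knockout against control with vehicle, and 21 to 22 and 14 to 16 with tunicamycin. For knockdown against control they were 2 to 3 and 2 to 5 with vehicle (2 lower without control or knockdown replicate 2), and 1 to 2 and 5 to 7 with tunicamycin (5 lower without replicate 3 of either). For tunicamycin they were 4 to 5 and 8 to 10 in control, 6 to 10 and 12 to 14 in knockout, and 3 to 7 and 10 to 11 in knockdown cells (3 higher without knockdown replicate 1 with tunicamycin). For the difference in response they were 1 to 5 and 3 to 6 in knockout cells (1 higher without knockout replicate 2 with tunicamycin), and 0 to 1 and 0 to 1 in knockdown cells. Counts of at most 16 per library limit what can be said of COL5A1, COL16A1, LAMA3 and THBS2.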
